A study of Mus musculus with 24 samples.

Results

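Chemokines are small secreted proteins that steer leukocytes along gradients through G-protein-coupled receptors, and they are grouped as CC or CXC by the spacing of their conserved cysteines. Many chemokine mRNAs are short-lived: tristetraprolin (TTP, encoded by *Zfp36*) is a zinc-finger protein that binds AU-rich elements in 3′ untranslated regions (UTRs) and recruits the machinery that removes the poly(A) tail, so that the bound mRNA is degraded. In bone marrow, *Ccl3* is known for restraining the proliferation of primitive progenitors, and CC and CXC ligands made by myeloid and lymphoid cells direct the traffic of neutrophils, monocytes and T cells. Here 9 chemokine genes of the 55376 genes counted were examined in every library, namely *Ccl3*, *Ccl4*, *Ccl5*, *Ccl6*, *Ccl9*, *Ccl22*, *Cxcl2*, *Cxcl10* and *Cxcl16*. They were chosen by symbol, on the measured level of *Ccl3*, which was higher in TTPΔARE cells, and the question was which of the other 8 genes followed it. The genotype differences of *Ccl3* are therefore given as a description, without a test.

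In TTPΔARE mice an AU-rich stretch is deleted from the *Zfp36* 3′ UTR, so that this mRNA lasts longer. The change is in the germline, so all cells of the animal carry it, and an effect on HSCs cannot be told apart from one of their surroundings. Bulk mRNA-seq of untreated bone marrow was available for hematopoietic stem cells (HSCs, sorted as LSK CD34- Flk2- CD150+) of young wild-type mice (Y-WT, n = 4), young TTPΔARE mice (Y-TTPΔARE, n = 4), middle-aged wild-type mice (M-WT, n = 5) and middle-aged TTPΔARE mice (M-TTPΔARE, n = 3), and for the myeloid-biased multipotent progenitors MPP3 of young mice (Y-WT, n = 4, and Y-TTPΔARE, n = 4). The TTPΔARE mice were homozygous, the WT mice were their littermates, and all were male. Whether replicates were separate animals is not stated, so p-values measure the spread between libraries.

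The libraries held 24261371 to 39934554 counts, so that 1 count was worth 0.0237 to 0.0428 CPM (counts scaled to a common library size, here with TMM scaling over all 24 libraries). *Zfp36*, counted over the whole gene, lay at 85.4 to 106 CPM in the 7 TTPΔARE HSC libraries and at 32.5 to 69.2 CPM in the 9 WT HSC libraries, without overlap. In MPP3 it lay at 81.7 to 124 CPM against 20.5 to 38.4 CPM. The sum of 5 progenitor markers (*Cd34*, *Flt3*, *Cd48*, *Mpo*, *Cebpa*) was 2340 to 4140 CPM in MPP3 and 143 to 463 CPM in HSCs, as the cell type labels say. Libraries also held markers of other cell types. The sum of 10 dendritic-cell markers was 1600 to 3470 CPM in Y-TTPΔARE MPP3 against 195 to 235 CPM in Y-WT MPP3, the sum of 6 endothelial markers reached 485 and 602 CPM in Y-WT HSC replicates 1 and 4 against 138 and 151 CPM in replicates 2 and 3, and neutrophil markers reached 171 CPM in Y-WT HSC replicate 4 against 7.34 to 21.3 CPM in the rest of its group. Ages and cell types each carried their own run of sample numbers, so that age or cell type cannot be told apart from such a set. Genotypes were compared within a run, where each genotype also had consecutive numbers. The labels do not say whether the numbers mark how libraries were prepared.

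*Ccl3* encodes a ligand of CCR1. In Y-WT HSCs it lay at 4.06, 4.39, 6.69 and 4.37 CPM, and in Y-TTPΔARE HSCs at 16.5, 14.6, 15.6 and 16.6 CPM. M-WT HSCs held 4.91, 6.82, 2.63, 4.30 and 6.04 CPM, and M-TTPΔARE HSCs 16.0, 13.0 and 21.8 CPM. Every TTPΔARE library was above every WT library at both ages, by 3.15-fold in young HSCs (log2 fold change 1.66, SE 0.17) and 3.31-fold in middle-aged HSCs (1.73, SE 0.26). In MPP3 the levels were 16.3, 9.94, 19.6 and 9.26 CPM in Y-WT and 25.7, 39.5, 26.0 and 43.1 CPM in Y-TTPΔARE, again without overlap and 2.40-fold apart (log2 fold change 1.26, SE 0.24). The lowest M-TTPΔARE HSC library, at 13.0 CPM, was close to the Y-WT MPP3 mean of 13.8 ± 5.03 CPM (SD, n = 4). In Y-TTPΔARE HSCs the sum of the T-cell genes *Cd3d*, *Cd3e* and *Cd3g* ran from 21.1 to 64.1 CPM, in another order of libraries than *Ccl3*. In M-TTPΔARE HSCs that sum was 9.62, 0.913 and 7.39 CPM, lowest in replicate 2, as was *Ccl3*. The sum of 10 T and NK markers was 92 to 164 CPM in Y-TTPΔARE HSCs against 58.4 to 70.4 CPM in Y-WT HSCs, with *Nkg7* the most abundant in both. In middle-aged HSCs it overlapped, at 38.1 to 55.9 CPM in M-TTPΔARE against 40 to 48.8 CPM in M-WT. *Klrb1c* was the most abundant of the 10 there and had a log2 fold change of -0.30. *Cd3e*, *Cd3g* and *Cd3d* had log2 fold changes of 2.1, 2.5 and 2.5 at low levels, and *Nkg7* and *Prf1* of -0.03 and 0.12. The *Cd3d*, *Cd3e* and *Cd3g* sum was 0.253 to 2.19 CPM in M-WT HSCs. In Y-TTPΔARE MPP3 the sum of 10 macrophage markers was 217, 325, 269 and 452 CPM, in the same order of libraries as *Ccl3*, against 45.5 to 199 CPM in Y-WT MPP3, and the dendritic sum was 1600 to 3470 CPM against 195 to 235 CPM. The part of such cells in the *Ccl3* values was not tested.

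**Figure D1:**
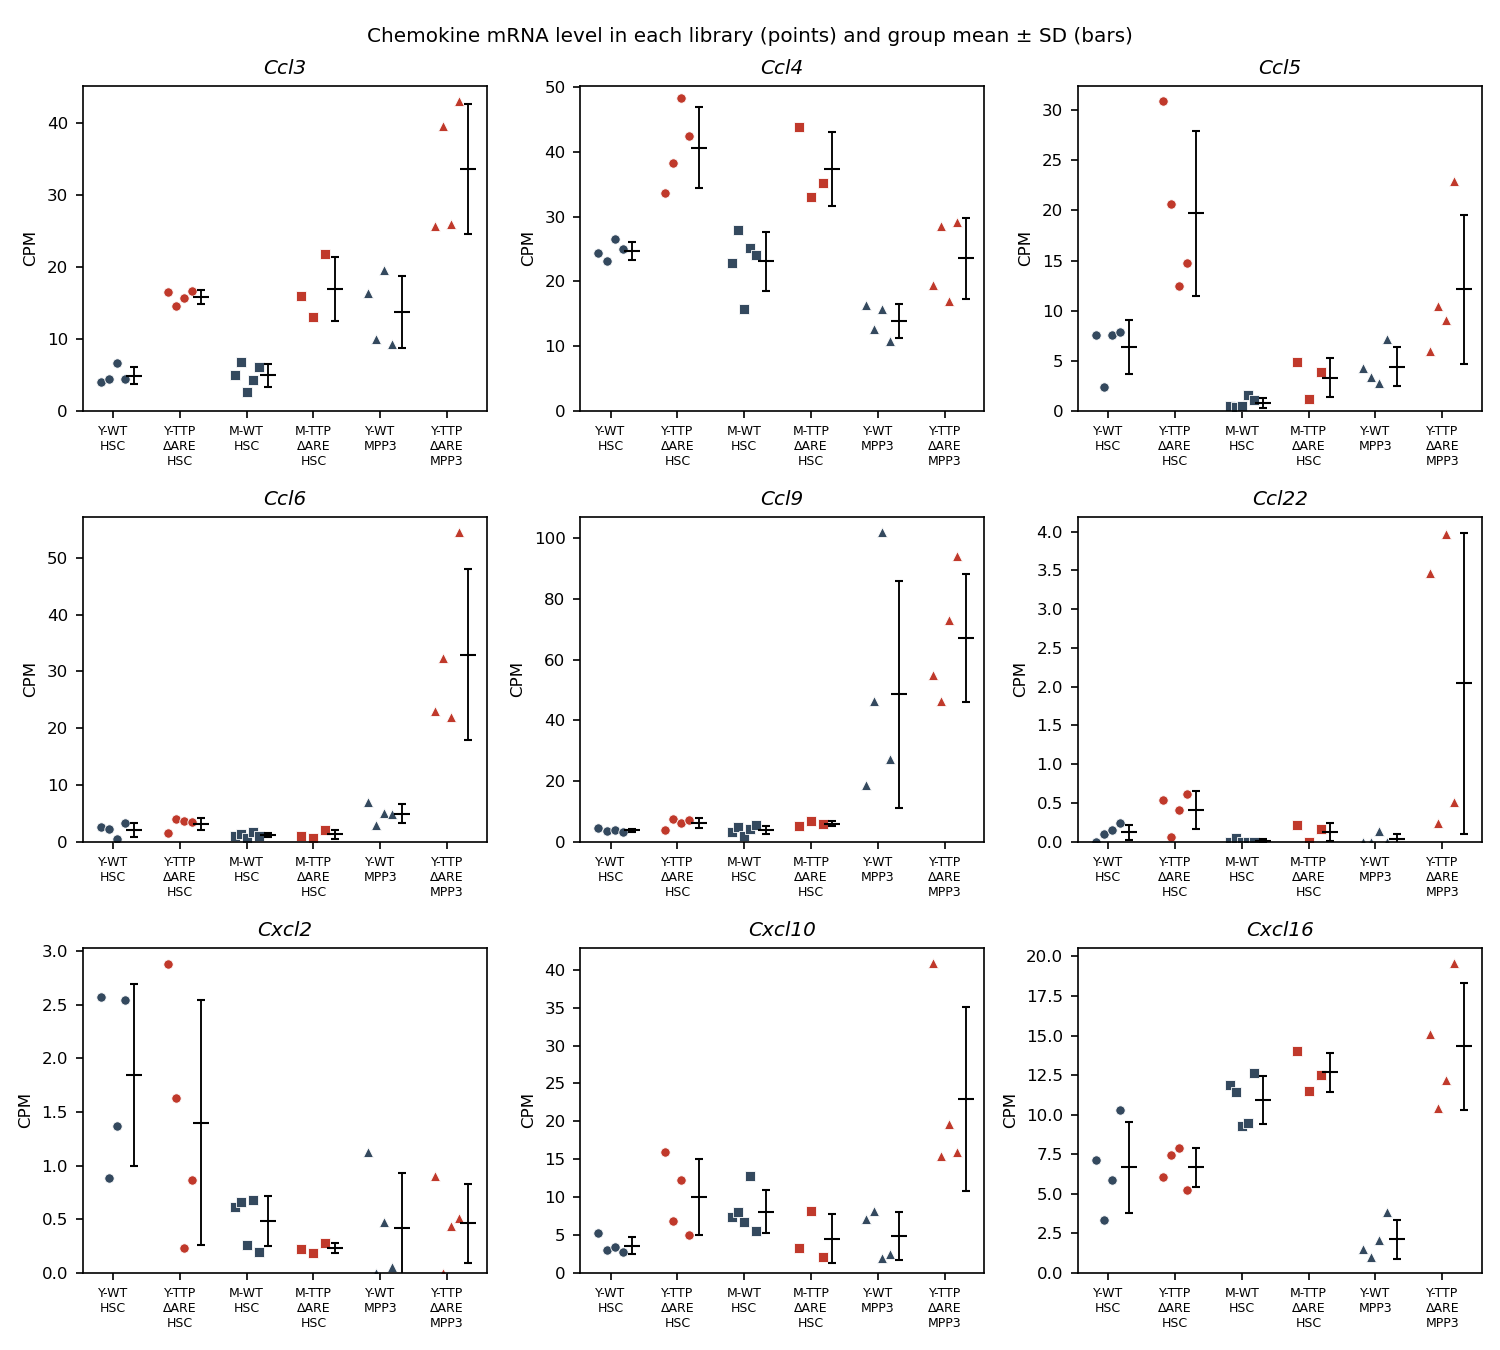
CPM of each chemokine gene (vertical axis, linear, starting at 0) in the 6 groups (horizontal axis). Points are libraries, blue-grey for WT and red for TTPΔARE, with circles for young HSCs, squares for middle-aged HSCs and triangles for MPP3. Black bars give the mean ± SD, not drawn below 0. *Ccl3* and *Ccl4* show red points above the blue-grey ones in all 3 pairs of groups, whereas *Ccl6* and *Cxcl16* do so in MPP3 only.

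The gene of *Ccl3* (ENSMUSG00000000982, chr11:83647844-83649355, minus strand of GRCm38) stands in a cluster on chromosome 11 that holds 5 of the 9 genes (*Ccl5*, *Ccl9*, *Ccl6*, *Ccl3* and *Ccl4*) within 138.9 kb, and *Ccl4* lies 13228 bases from it on the other strand. The annotated 3′ UTR of *Ccl3* has 409 bases and 5 copies of the pentamer ATTTA, the core of AU-rich elements. At 12.2 copies per kb it is denser in them than the 3′ UTRs of 99.4% of the 21007 protein-coding genes with one, whose median is 1.24 per kb. The heptamer TATTTAT, the sequence that TTP prefers, was found in the 3′ UTRs of 4 of the 9 chemokine genes, beside 27.6% of all protein-coding genes. The windows of 30 bases around it are shown because AU-rich elements are the sequences that TTP is known to bind. They are written 5′ to 3′ on the strand of the mRNA, with T for U, and capitals mark ATTTA, which lies within TATTTAT. All of them are exonic and lie in the 3′ UTR annotated by GENCODE M21.

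Ccl3, chr11:83648003-83648032, minus strand: tgtatttgtgactATTTAttctgaaagact
Ccl4, chr11:83664541-83664570, plus strand: tattatttctattATTTAtgttttagttat
Ccl22, chr8:94750818-94750847, plus strand: aagctatagttatATTTAtataggaaagag
Cxcl2, chr5:90905328-90905357, plus strand: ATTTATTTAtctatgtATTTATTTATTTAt

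The *Cxcl2* window alone holds 5 overlapping or neighbouring pentamers and 4 heptamers, and its whole 3′ UTR of 1494 bases holds 11 and 7. *Ccl4* has 2 pentamers and 1 heptamer in 302 bases, and *Ccl22* has 2 and 1 in 1813 bases. *Ccl6* (4 pentamers in 943 bases), *Ccl9* (5 in 2465), *Cxcl10* (3 in 996) and *Cxcl16* (2 in 1421) have pentamers without the heptamer, and the 199 bases of *Ccl5* have neither. The pentamer occurs in 65.2% of all protein-coding genes, beside 8 of the 9 chemokine genes. A match to these letters is a description of the sequence, and binding was not measured here.

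**Figure D2:**
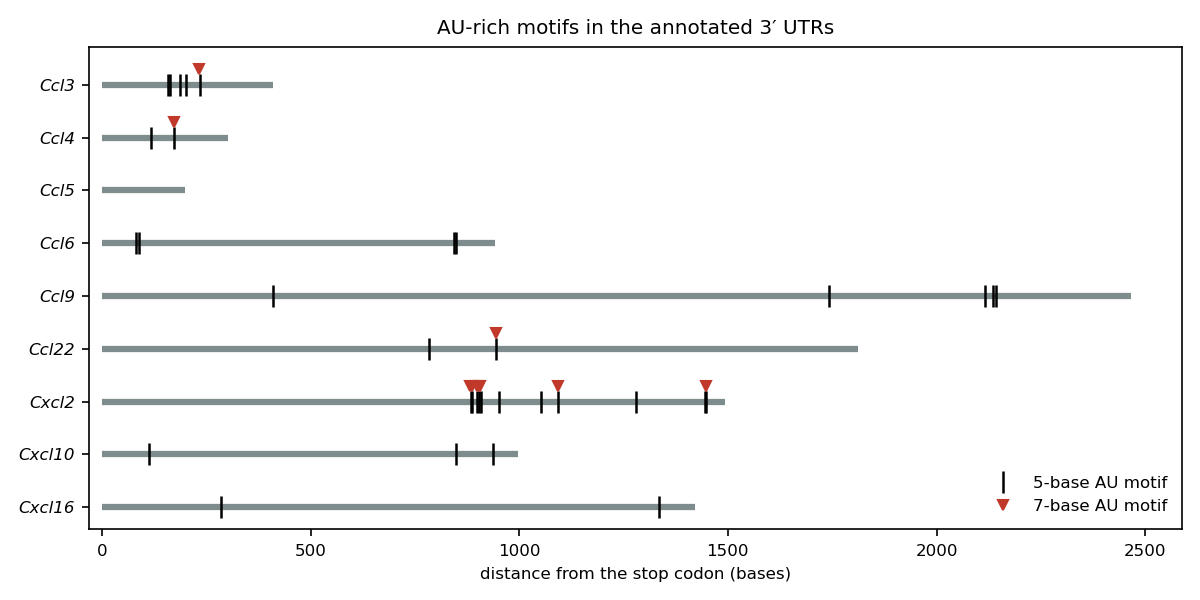
Position of the AU-rich motifs in the annotated 3′ UTR of each chemokine gene, as distance from the stop codon in bases. Grey bars span the 3′ UTR, black ticks mark the 5-base motif and red triangles the 7-base motif. The 5 pentamers of *Ccl3* sit close together in a short 3′ UTR, and *Cxcl2* holds 7 of the heptamers.

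A gene was called when edgeR's quasi-likelihood test gave a Benjamini-Hochberg adjusted p under 0.05 over all genes tested, with a fold change over 1.2 and an average log2 CPM over 1.5. In Y-HSC none of the 7 genes tested beside *Ccl3* was called, where 0.0246% of all 24381 genes were, and 4 of the 7 (*Ccl4*, *Ccl5*, *Ccl9*, *Cxcl10*) had an unadjusted p under 0.05, as did 7.38% of all genes. *Zfp36*, the altered gene, was not called in Y-HSC either (log2 fold change 0.96, SE 0.21, adjusted p = 0.238). The test there thus missed a known change. *Zfp36* was called higher in M-HSC (0.97, adjusted p = 0.002) and in MPP3 (1.795, adjusted p = 0.000646). In M-HSC again none of 7 was called, where 1.41% of 21136 genes were, and 3 (*Ccl4*, *Ccl5*, *Cxcl10*) had an unadjusted p under 0.05, as did 16.0% of all genes. In MPP3, 2 of the 7, *Ccl6* and *Cxcl16*, were called higher, where 1.58% of 19023 genes were. DESeq2 called 3, 1 and 5 of these genes in the 3 comparisons, and edgeR's likelihood ratio test likewise called 3, 1 and 5. Over all genes DESeq2 called 304, 823 and 768, and the likelihood ratio test 146, 287 and 540. The median log2 fold change of the tested genes beside *Ccl3* was 0.66 in Y-HSC, 0.16 in M-HSC and 1.34 in MPP3, beside medians of -0.07, 0.01 and 0.04 over all genes tested. *Ccl22* was too rare to be tested in any of the 3.

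*Ccl4* encodes a chemokine close in sequence to that of *Ccl3*. Its level was 24.3, 23.1, 26.5 and 25.0 CPM in Y-WT HSCs and 33.6, 38.3, 48.3 and 42.4 CPM in Y-TTPΔARE HSCs. M-WT HSCs held 22.8, 27.9, 15.7, 25.2 and 24.0 CPM, and M-TTPΔARE HSCs 43.9, 33.0 and 35.2 CPM. All TTPΔARE HSC libraries were thus above all WT HSC libraries of either age. In MPP3 the levels were 16.4, 12.6, 15.7 and 10.8 CPM in Y-WT and 19.5, 28.6, 16.9 and 29.1 CPM in Y-TTPΔARE, without overlap but with the lowest TTPΔARE library close to the highest WT library. The log2 fold changes were 0.67 (SE 0.10) in Y-HSC, 0.65 (SE 0.16) in M-HSC and 0.73 (SE 0.19) in MPP3, that is 1.59-, 1.56- and 1.66-fold. None passed the test, with adjusted p of 0.113, 0.0696 and 0.109, whereas DESeq2 gave 9.18e-06, 0.00203 and 0.0169. Without M-WT HSC replicate 3, the lowest library, the M-HSC value was 0.53 and was called by edgeR (adjusted p = 0.0450). The share of genes whose TTPΔARE libraries all lay above all WT libraries was 4.04% in Y-HSC, 8.25% in M-HSC and 5.05% in MPP3. The *Cd3d*, *Cd3e* and *Cd3g* sum ordered the M-TTPΔARE HSC libraries as *Ccl4* did, at 9.62, 0.913 and 7.39 CPM, but not the Y-TTPΔARE HSC libraries. The sum of 10 T and NK markers was 92 to 164 CPM in Y-TTPΔARE against 58.4 to 70.4 CPM in Y-WT HSCs, with *Nkg7* the most abundant in both. The part of T or NK cells in the *Ccl4* values was not tested.

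*Ccl5*, a ligand of CCR1 and CCR3 that T and NK cells make in quantity, lay at 7.55, 2.38, 7.61 and 7.89 CPM in Y-WT HSCs and at 30.9, 20.6, 12.5 and 14.8 CPM in Y-TTPΔARE HSCs. These groups did not overlap, and the log2 fold change was 1.60 (SE 0.39, adjusted p = 0.260). In middle-aged HSCs the level was lower, at 0.475, 0.354, 0.474, 1.52 and 1.05 CPM in M-WT and 4.90, 1.13 and 3.89 CPM in M-TTPΔARE, where replicate 2 fell within the WT range. The log2 fold change was 2.05 (SE 0.52, adjusted p = 0.0793), at an average level under the limit for a call, and 2.46 without M-TTPΔARE replicate 2. In MPP3 the ranges were 2.75 to 7.18 CPM in Y-WT and 5.93 to 22.9 CPM in Y-TTPΔARE, with a log2 fold change of 1.34 (SE 0.41, adjusted p = 0.182). The *Cd3d*, *Cd3e* and *Cd3g* sum followed the same libraries of the HSC sorts: it was 9.62 and 7.39 CPM in M-TTPΔARE replicates 1 and 3 but 0.913 CPM in replicate 2, and 8.55 CPM in Y-WT replicate 2 against 16.0 to 22.6 CPM in the rest of that group. In MPP3 the same sum stayed at 5.48 CPM or less, and the library with the highest *Ccl5*, Y-TTPΔARE replicate 4, held 0.813 CPM of it. The sum over 10 T and NK markers was 571 CPM there, 206 to 277 CPM in the rest of its group and 199 to 311 CPM in Y-WT MPP3. *Nkg7* was the most abundant of the 10 in both MPP3 groups. It was called 6.28-fold higher in Y-WT MPP3 than in Y-WT HSCs (edgeR, adjusted p = 5.1e-05), whereas *Cd3e* and *Cd3g* were called lower in that comparison. The part of T or NK cells in these *Ccl5* values was not tested, and in bulk samples the number of cells of a type and the RNA per cell cannot be told apart.

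*Ccl6* and *Ccl9* encode CCR1 ligands made chiefly by myeloid cells. *Ccl6* was scarce in HSCs, at 0.446 to 3.31 CPM in Y-WT, 1.55 to 3.99 CPM in Y-TTPΔARE, 0.737 to 1.63 CPM in M-WT and 0.698 to 2.11 CPM in M-TTPΔARE, and the groups overlapped at both ages (adjusted p = 0.738 and 0.901). In MPP3 it lay at 6.91, 2.89, 5.03 and 4.87 CPM in Y-WT and at 23.0, 32.3, 22.0 and 54.5 CPM in Y-TTPΔARE. *Ccl6* thus rose 6.41-fold in TTPΔARE MPP3 (log2 fold change 2.68, SE 0.30, adjusted p = 0.00117), and it was called in each fit that left out 1 of the 8 libraries, with log2 fold changes of 2.43 to 2.84. *Ccl9* was the most variable gene by SD in WT MPP3, at 18.6, 46.3, 102 and 27.3 CPM, and its Y-TTPΔARE MPP3 values of 54.8, 46.5, 73.0 and 94.3 CPM fell within that range (log2 fold change 0.42, SE 0.44, adjusted p = 0.735). In HSCs *Ccl9* was 3.78 ± 0.540 CPM in Y-WT against 6.21 ± 1.67 CPM in Y-TTPΔARE (SD, n = 4 each, adjusted p = 0.442) and 3.89 ± 1.36 CPM (n = 5) in M-WT against 5.99 ± 0.949 CPM (n = 3) in M-TTPΔARE (adjusted p = 0.326), with overlap in both.

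*Ccl22*, a CCR4 ligand typical of dendritic cells and macrophages, was near the limit of detection. It had no count in 9 of the 24 libraries, where a count of 0 allows up to 3 counts or 0.0711 to 0.128 CPM, a limit that covers counting error only. In Y-TTPΔARE MPP3 it lay at 3.46, 0.238, 3.97 and 0.513 CPM, that is 108, 8, 110 and 12 counts, whereas Y-WT MPP3 held 0, 0, 4 and 0 counts. The difference of the means was 2.01 CPM (exact p = 0.0286, two-sided permutation test, where no smaller p can be reached with 4 libraries a group). In HSCs the means were 0.122 ± 0.0984 CPM in Y-WT and 0.404 ± 0.245 CPM in Y-TTPΔARE (SD, n = 4 each, exact p = 0.114), and 0.0101 ± 0.0226 CPM in M-WT (n = 5) and 0.129 ± 0.115 CPM in M-TTPΔARE (n = 3, exact p = 0.107).

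*Cxcl2* attracts neutrophils through CXCR2. It stayed below 3 CPM in all libraries, and its ranges overlapped in the 3 genotype comparisons. The values were 0.885 to 2.57 CPM in Y-WT and 0.231 to 2.88 CPM in Y-TTPΔARE HSCs, 0.191 to 0.675 CPM in M-WT and 0.188 to 0.278 CPM in M-TTPΔARE HSCs, and 0 to 1.13 CPM in Y-WT and 0 to 0.898 CPM in Y-TTPΔARE MPP3. The log2 fold changes were -0.41 (SE 0.67), -1.10 (SE 0.63) and 0.18 (SE 1.36), with adjusted p of 0.827, 0.414 and 0.972. At this depth a difference of the size seen for *Ccl3* was not detectable for *Cxcl2* in MPP3, where its SE alone exceeded 1 on the log2 scale.

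*Cxcl10*, an interferon-induced ligand of CXCR3, did not keep its direction across the comparisons. In Y-WT HSCs it lay at 5.19, 3.06, 3.34 and 2.72 CPM and in Y-TTPΔARE HSCs at 15.9, 6.77, 12.3 and 4.95 CPM, where the lowest TTPΔARE library fell below the highest WT library (log2 fold change 1.45, SE 0.37, adjusted p = 0.295). In M-WT HSCs it lay at 7.31, 8.01, 6.69, 12.8 and 5.5 CPM and in M-TTPΔARE HSCs at 3.27, 8.16 and 2.08 CPM (log2 fold change -0.88, SE 0.39, adjusted p = 0.298). In MPP3 the values were 7.05, 8.15, 1.88 and 2.44 CPM in Y-WT and 40.9, 15.4, 19.6 and 15.9 CPM in Y-TTPΔARE, without overlap (log2 fold change 2.23, SE 0.52, adjusted p = 0.0710). The difference between the young and the middle-aged genotype effect in HSCs was -2.38 (SE 0.59) and did not pass the test (adjusted p = 0.221), whereas DESeq2 gave an adjusted p of 0.0175. *Cxcl10* shares 133 exon bases with *Art3* on the opposite strand, and since the strand setting of the counting is not stated its counts may hold reads of that gene.

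Of 14 NF-κB and interferon pathway genes, none was called in Y-HSC or M-HSC by edgeR's quasi-likelihood test, where 0.0246% and 1.41% of all genes were. In TTPΔARE MPP3, 2 were called higher, where 1.58% of all genes were. *Irf8*, which directs monocyte and dendritic-cell development, rose from 37.8 ± 18.4 to 370 ± 101 CPM (SD, n = 4 each, log2 fold change 3.25, SE 0.34, adjusted p = 0.000762). *Irf7*, an interferon-induced regulator, rose from 45.0 ± 4.83 to 98.0 ± 20.3 CPM (log2 fold change 1.09, SE 0.16, adjusted p = 0.00534). The 5 NF-κB subunits had log2 fold changes of 0.04 (SE 0.11) for *Nfkb1*, 0.32 (SE 0.20) for *Nfkb2*, -0.04 (SE 0.23) for *Rel*, -0.12 (SE 0.10) for *Rela* and 0.29 (SE 0.23) for *Relb* in MPP3, and none passed the test.

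*Cxcl16*, which is made as a membrane-bound ligand of CXCR6 and can be shed, was the gene whose genotype difference was called as differing between the cell types. In Y-WT HSCs it lay at 7.16, 3.34, 5.87 and 10.3 CPM and in Y-TTPΔARE HSCs at 6.05, 7.46, 7.90 and 5.26 CPM, inside the WT range (log2 fold change -0.04, SE 0.28). In middle-aged HSCs the values were 11.9, 11.4, 9.26, 9.45 and 12.6 CPM in M-WT and 14.0, 11.5 and 12.5 CPM in M-TTPΔARE (log2 fold change 0.16, SE 0.14). In MPP3 it lay at 1.52, 1.01, 2.04 and 3.86 CPM in Y-WT and at 15.1, 10.4, 12.2 and 19.6 CPM in Y-TTPΔARE. *Cxcl16* thus rose 6.38-fold in TTPΔARE MPP3 (log2 fold change 2.67, SE 0.39, adjusted p = 0.00613), and it was called in each fit without 1 of the 8 libraries, with log2 fold changes of 2.44 to 3.22. *Cxcl16* shares 552 exon bases with *Zmynd15* on the opposite strand, so its counts may hold reads of that gene.

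**Figure D3:**
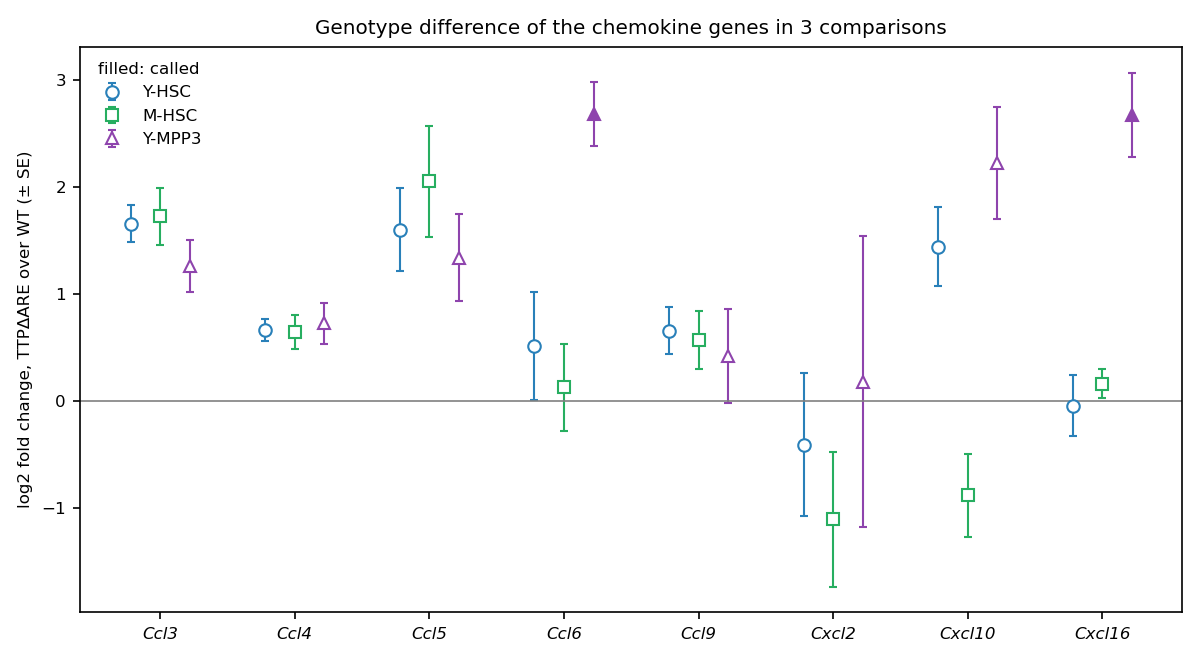
Log2 fold change of TTPΔARE over WT (vertical axis) of the 8 chemokine genes with a fitted value, in young HSCs (blue circles), middle-aged HSCs (green squares) and young MPP3 (purple triangles), with bars of ± 1 SE. Filled symbols are called genes, and *Ccl3* is drawn open because it was not tested. *Ccl4* sits at 0.65 to 0.73 in all 3 comparisons, whereas *Ccl6* and *Cxcl16* reach 2.68 and 2.67 in MPP3 only.

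Markers of several other cell types were higher in Y-TTPΔARE than in Y-WT MPP3, as were *Ccl6*, *Cxcl16* and *Ccl22*. Of 10 dendritic-cell markers 8 were called higher in Y-TTPΔARE MPP3, where 1.58% of all genes were. In Y-HSC none of the 10 was called by edgeR, where 0.0246% of all genes were. In M-HSC 1 of the 7 tested was called, *Zbtb46* (log2 fold change 0.48, SE 0.10, edgeR adjusted p = 0.0437), where 1.41% of all genes were. *Xcr1*, the receptor of type 1 dendritic cells, lay at 70.5 ± 23.1 CPM in Y-TTPΔARE MPP3 against 1.44 ± 1.02 CPM in Y-WT MPP3 (SD, n = 4 each), and no dendritic marker was at 0 in every library of either group. The sum of 10 macrophage markers was 217 to 452 CPM against 45.5 to 199 CPM, that of 8 monocyte markers 832 to 1580 CPM against 467 to 822 CPM, and that of 8 basophil, mast-cell and eosinophil markers 143 to 475 CPM against 47.1 to 97.3 CPM, all without overlap. Within Y-TTPΔARE MPP3 the libraries with the lowest and the highest *Cxcl16*, 10.4 and 19.6 CPM, were also those with the lowest and the highest dendritic sum, 1600 and 3470 CPM. *Ccl6* was also highest in the library with the highest dendritic sum. Its next highest value, however, lay in replicate 2, which had the lowest sum. *Ccl22* was instead highest in replicates 1 and 3, whose dendritic sums were 2680 and 2030 CPM. The part of such cells in the chemokine values was not tested.

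**Figure D4:**
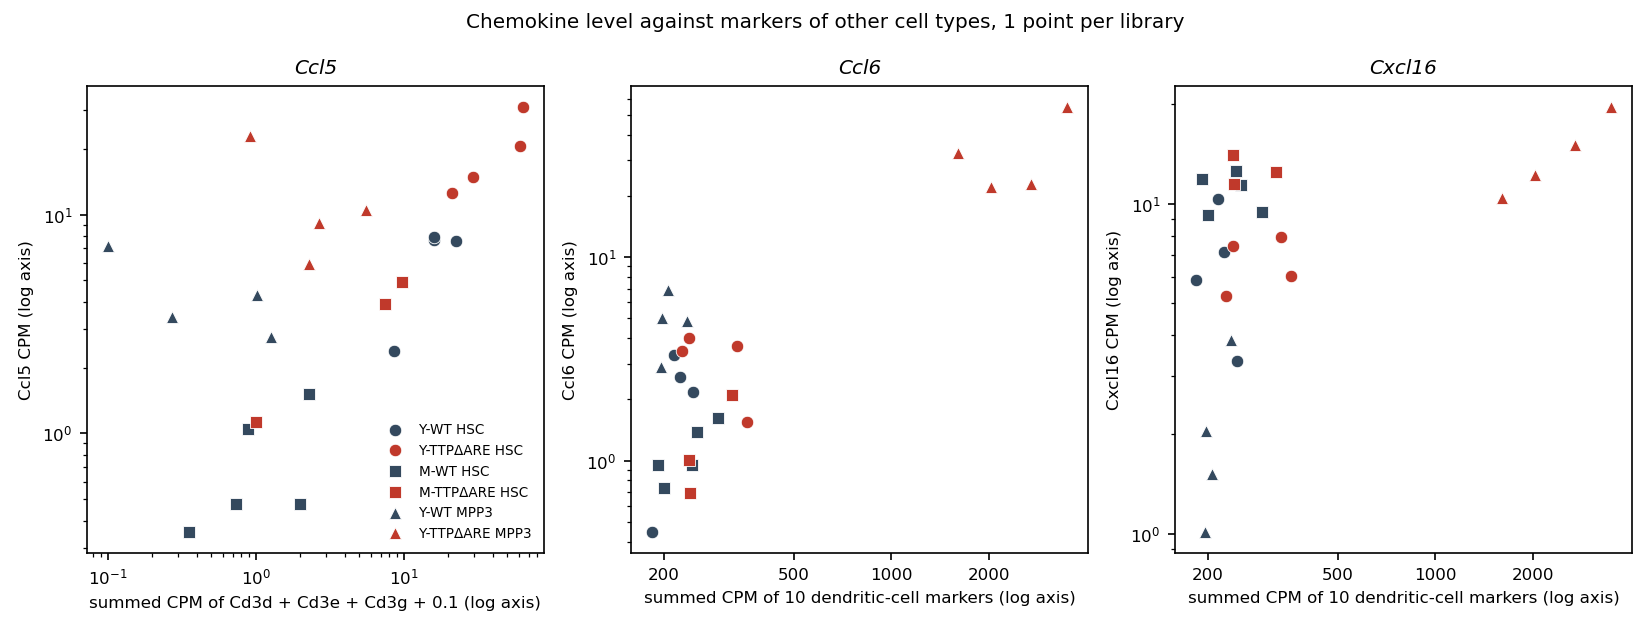
CPM of *Ccl5*, *Ccl6* and *Cxcl16* (vertical log axes) against the summed CPM of markers of other cell types (horizontal log axes), with 1 point per library. *Ccl5* is set against *Cd3d*, *Cd3e* and *Cd3g* with 0.1 added, and *Ccl6* and *Cxcl16* against 10 dendritic-cell markers. The 4 Y-TTPΔARE MPP3 libraries stand at dendritic sums of 1600 to 3470 CPM, apart from the rest at 183 to 359 CPM.

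The difference of the genotype effect between MPP3 and HSCs of young mice was tested for the 8 genes beside *Ccl3*, and 1 of them was called, where 0.429% of 26337 genes were. It was 2.65 on the log2 scale for *Cxcl16* (SE 0.54, adjusted p = 0.0365) and 2.12 for *Ccl6* (SE 0.64, adjusted p = 0.202), so that the larger *Ccl6* change in MPP3 was not shown to differ from that in HSCs. For *Ccl4* it was -0.03 (SE 0.25, adjusted p = 0.974), and for *Ccl3*, as a description, -0.50 (SE 0.33). The *Cxcl16* call rested on most libraries: it was lost without Y-WT HSC replicate 3 (2.73, adjusted p = 0.0528) or 4 (2.37, 0.0905), without Y-TTPΔARE HSC replicate 1 (2.66, 0.0687), 2 (2.74, 0.0580), 3 (2.77, 0.0501) or 4 (2.66, 0.0660), without Y-WT MPP3 replicate 1 (2.54, 0.0609) or 3 (2.64, 0.0559), and without Y-TTPΔARE MPP3 replicate 1 (2.62, 0.0631) or 4 (2.52, 0.0752). *Ccl6* was called without Y-WT HSC replicate 3 (2.45, adjusted p = 0.0412), its lowest library. Between ages, none of the 8 differences was called by edgeR, where 0.0213% of 28189 genes were, 1 (*Cxcl10*) had an unadjusted p under 0.05, as did 15.0% of all genes, and DESeq2 and the likelihood ratio test each called that 1. Over all genes DESeq2 and the likelihood ratio test called 160 and 27.

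Per kb of exon, *Ccl4* was the most abundant of the 9 genes in Y-WT HSCs, at 37.5 ± 2.14 CPM per kb (SD, n = 4), above *Ccl5* at 6.62 ± 2.76 and *Ccl3* at 6.37 ± 1.59, which did not differ beyond their spread. *Cxcl16* (2.21 ± 0.960), *Cxcl10* (1.59 ± 0.490), *Ccl9* (1.24 ± 0.177), *Ccl6* (1.18 ± 0.676) and *Cxcl2* (0.891 ± 0.409 CPM per kb) followed with overlapping ranges. *Ccl22* was the rarest at 0.0524 ± 0.0423 CPM per kb. In Y-WT MPP3 the order was *Ccl4*, *Ccl3* and *Ccl9*, at 21.1 ± 3.98, 18.0 ± 6.56 and 16.0 ± 12.4 CPM per kb, whose ranges overlapped. In Y-TTPΔARE MPP3 *Ccl3* stood at 43.9 ± 11.8 CPM per kb beside *Ccl4* at 35.6 ± 9.48, again with overlap, whereas in HSCs of both ages and genotypes *Ccl4* was above every *Ccl3* library of the same group.

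Between Y-WT MPP3 and Y-WT HSCs, 4 of the 8 tested genes, *Ccl3* included, were called, where 22.2% of 22816 genes were. *Ccl9* was 12.3-fold higher in MPP3 (log2 fold change 3.62, SE 0.49, adjusted p = 0.000785), and 3.01 on the log2 scale without Y-WT MPP3 replicate 3. *Ccl3* was 2.72-fold higher in MPP3 (1.45, SE 0.25, adjusted p = 0.00281), and *Ccl4* was 1.84-fold lower (-0.88, SE 0.12, adjusted p = 0.000768), so that these neighbours in the genome moved in opposite directions between the WT cell types. *Cxcl16* was 3.21-fold lower in MPP3 (-1.68, SE 0.47, adjusted p = 0.0277), with overlapping ranges. This call was lost without Y-WT HSC replicate 1 (-1.57, adjusted p = 0.0531) or 4 (-1.40, 0.0785) and without Y-WT MPP3 replicate 1 (-1.55, 0.0718), 2 (-1.43, 0.0730) or 3 (-1.65, 0.0598). The sum of 6 endothelial markers was 138 to 602 CPM in Y-WT HSCs and 2.48 to 8.18 CPM in Y-WT MPP3, and *Cxcl16* and that sum were both highest in Y-WT HSC replicates 1 and 4.

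Between M-WT and Y-WT HSCs, 2 of the 8 tested genes were called, where 12.1% of 22280 genes were. *Ccl5* was 8.33-fold lower in middle-aged HSCs (log2 fold change -3.06, SE 0.47, adjusted p = 0.00202), and the *Cd3d*, *Cd3e* and *Cd3g* sum was also lower there, at 0.253 to 2.19 CPM against 8.55 to 22.6 CPM. Of 7 tested T and NK markers 3 were called lower and 1, *Klrb1c*, higher (log2 fold change 1.97, edgeR adjusted p = 3.49e-05). *Prf1*, at 0.15, was not called. The part of T or NK cells in the *Ccl5* difference was not tested. *Cxcl10* was 2.22-fold higher (1.15, SE 0.25, adjusted p = 0.0117). *Cxcl2* had a log2 fold change of -1.94 (SE 0.50, adjusted p = 0.0218), under the limit on level. *Ccl3* and *Ccl4* had log2 fold changes of 0.01 (SE 0.27) and -0.11 (SE 0.14) and did not pass the test. *Cxcl16* had a log2 fold change of 0.71 and did not pass the test (adjusted p = 0.0761), but it was called without Y-WT HSC replicate 4 (0.99, adjusted p = 0.0256), without the low-count filter (0.79, 0.0275) and by DESeq2 (0.69, 0.0433).

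The other chemokine ligands and the receptors were taken from fixed lists. Of 31 further ligand genes in the files, 14 passed the filter on low counts in Y-HSC, 12 in M-HSC and 11 in MPP3, and none, 1 and 2 were called higher, with none lower. Over all genes 0.0246% were called in Y-HSC, 1.41% in M-HSC and, counting higher ones only, 1.58% in MPP3. By edgeR the ligand called in M-HSC was *Cx3cl1*, the membrane-bound ligand of CX3CR1, which rose from 19.2 ± 3.80 (SD, n = 5) to 37.4 ± 3.01 CPM (n = 3, log2 fold change 0.91, SE 0.14, adjusted p = 0.0111). In MPP3, *Cxcl9*, like *Cxcl10* an interferon-induced CXCR3 ligand, rose from 1.11 ± 0.372 to 31.9 ± 8.90 CPM (n = 4 each, log2 fold change 4.81, SE 0.35, adjusted p = 0.000113), and *Ccl8*, a monocyte attractant, rose from 0.234 ± 0.269 to 6.12 ± 2.38 CPM (4.59, SE 0.79, adjusted p = 0.0157). The median log2 fold change of the 11 tested ligands beside the 9 was 0.26.

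Receptors of these ligands were also measured. In MPP3, 4 of 18 tested receptor genes were called higher and none lower, where 1.58% of all genes were called higher. The median log2 fold change over the 18 was 1.67, beside 0.04 over all genes. *Cxcr3*, the receptor of *Cxcl9* and *Cxcl10*, rose from 1.46 ± 0.545 to 25.5 ± 11.9 CPM (SD, n = 4 each, log2 fold change 4.03, SE 0.38, adjusted p = 0.000478). *Ccr2*, *Xcr1* and *Ccr7* rose by 4.15 (SE 0.24), 5.52 (SE 0.52) and 2.02 (SE 0.35) on the log2 scale, and all of these 3 also stand in the dendritic or monocyte marker lists. *Cxcr6*, the receptor of *Cxcl16*, had a log2 fold change of 2.35 (SE 0.53, adjusted p = 0.0615) at a level under the limit for a call. In Y-HSC none of 22 tested receptors was called, where 0.0246% of all genes were, and in M-HSC 1 of 18 was, where 1.41% of all genes were. It was *Cxcr4*, which retains stem cells in the marrow and fell by 0.54 on the log2 scale (SE 0.11, adjusted p = 0.0389). The genotype difference was called as differing between ages for 1 of 23 tested receptors, where 0.0213% of all genes were called. This was *Cxcr4*, by -1.32 (SE 0.18, adjusted p = 0.0149), since it lay at 16.6 to 21.8 CPM in Y-WT and 26.8 to 33.6 CPM in Y-TTPΔARE HSCs, but at 16.9 to 22.1 CPM in M-WT and 12.9 to 14.9 CPM in M-TTPΔARE HSCs.

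**Figure D5:**
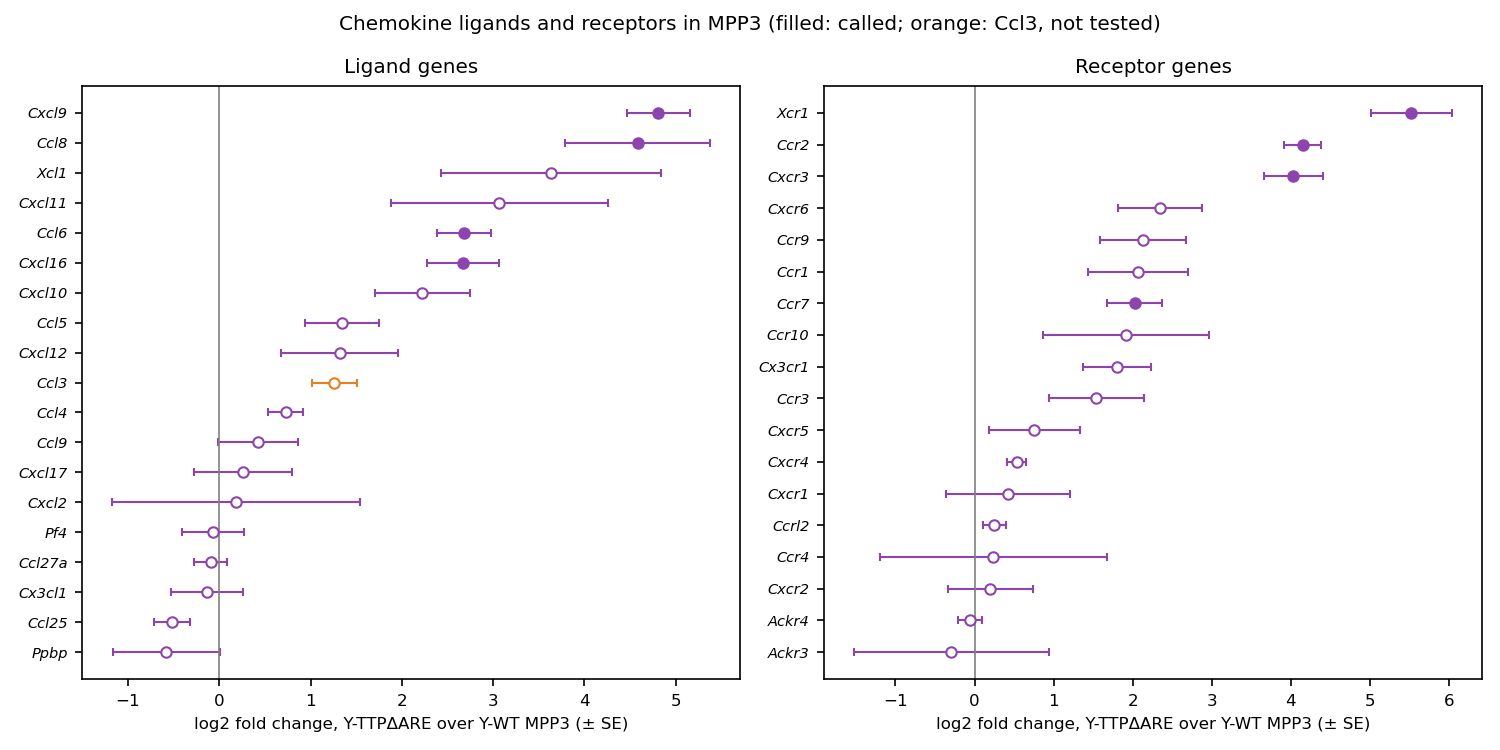
Log2 fold change of Y-TTPΔARE over Y-WT MPP3 (horizontal axes, bars of ± 1 SE) of the chemokine ligand genes and receptor genes that passed the filter on low counts, ordered by size. Filled points are called genes, and *Ccl3*, which was not tested, is orange. The called ligands are *Cxcl9*, *Ccl8*, *Ccl6* and *Cxcl16*, and the called receptors *Xcr1*, *Ccr2*, *Cxcr3* and *Ccr7*, all with higher values in TTPΔARE.

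Genes of the same lists also differed between the WT groups and in the size of the genotype difference. In Y-WT MPP3 against Y-WT HSCs 13 further ligands, 20 receptors and 14 pathway genes were tested, where 22.2% of all genes were called. *Ccr2*, *Ccr3* and *Cxcr4* were called higher (log2 fold changes 1.34, 2.15 and 0.71), as were *Rel* (0.76) and *Irf8*. *Pf4*, *Cx3cl1*, *Cxcr3*, *Cxcr6* and *Ackr1* were called lower. The endothelial sum was also lower in Y-WT MPP3 (2.48 to 8.18 against 138 to 602 CPM), as was the *Cd3d*, *Cd3e* and *Cd3g* sum (0 to 1.17 against 8.55 to 22.6 CPM). The part of such cells in these differences was not tested. In M-WT against Y-WT HSCs the same numbers of genes were tested, where 12.1% of all genes were called. The called ones beside the 9 chemokine genes were all lower. They were the platelet chemokines *Pf4* and *Ppbp* (-0.92 and -1.01), the receptors *Ccr9*, *Cxcr3*, *Cxcr6* and *Ackr1*, and *Relb*, *Nfkbie* and *Irf8*. In M-WT HSCs the endothelial sum was 82.2 to 115 CPM and the *Cd3d*, *Cd3e* and *Cd3g* sum 0.253 to 2.19 CPM, both below Y-WT. The part of such cells was not tested here either. For the difference of the genotype effect between cell types, 16 further ligands, 22 receptors and 14 pathway genes were tested, where 0.429% of all genes were called. The genotype difference was called as larger in MPP3 than in HSCs for *Cxcl9* (by 4.30 on the log2 scale), *Ccr2* (2.42), *Xcr1* (5.13), *Irf7* (1.04) and *Irf8* (2.96). *Ackr1* was called as well, but it was too rare to be tested within MPP3, with 6 counts in all 4 Y-WT MPP3 libraries, and its mean in HSCs was 32.3 ± 23.8 CPM in Y-WT and 9.09 ± 2.23 CPM in Y-TTPΔARE (SD, n = 4 each), so that no size is given for it.

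The genes whose log2 CPM followed *Ccl3* most closely over the 24 libraries were *Ppcdc* and *Itgb7* (Pearson's r = 0.88 each), *Otos* and *Fbp1* (0.87 each) and *Osbpl1a* (0.86), among 11624 genes over the limit on level. The libraries share the genotype and the cell type as sources of such a likeness, so r is a description. *Fbp1*, the fructose-bisphosphatase of gluconeogenesis, had group means from 13.6 CPM in M-WT HSCs to 68.0 CPM in Y-TTPΔARE MPP3. Among the chemokine genes r with *Ccl3* was 0.73 for *Ccl9*, 0.71 for *Ccl6*, 0.58 for *Ccl5*, 0.37 for *Cxcl10*, 0.22 for *Ccl4* and 0.10 for *Cxcl16* over all 24 libraries. Over the 16 HSC libraries alone, where the cell type does not enter, it was 0.91 for *Ccl4*, 0.77 for *Ccl9* and 0.84 for *Zfp36*, against 0.03 for *Cxcl10* and 0.07 for *Cxcl16*. Without Y-TTPΔARE MPP3 replicate 4, 3 of the 5 genes named remained among the 5 most like *Ccl3*, and over the HSC libraries 0 of 5 did, where *Trim58* (0.91) and *Ccl4* led.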

How the data were processed

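The authors sorted HSCs and MPP3 from mouse bone marrow, removed adapters (Trim Galore!, Cutadapt), mapped to mm10 with STAR and used featureCounts for gene counts. The deposited values are raw counts per gene symbol, and the strand and multimapping settings are not given in the sources used here. Of the counts from 1 to 20, 71.4% were even, so that 1 count may not be 1 fragment. Per the labels, 24 libraries fell into 6 groups. The labels and the study's methods name different library kits.

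From the counts, genotypes were compared within young HSCs (Y-HSC), middle-aged HSCs (M-HSC) and MPP3, WT cells between cell types and between ages, and the genotype differences with each other. Each comparison was fitted on its own libraries with edgeR 4.0.16 in R 4.3.3 (TMM scaling, a minimum count of 10 and a total of 15, quasi-likelihood test) over all genes that passed, and p-values were adjusted after Benjamini and Hochberg over all of them. The limits of a call were 0.05 for the adjusted p, 1.2 for the fold and 1.5 for the mean log2 CPM, as in the study's methods. The SE was taken from the fold change and its F statistic. All 8 MPP3 libraries were used, whereas the study gives 1 TTPΔARE MPP3 sample fewer and does not say which, so that the MPP3 group differs from the study's. *Ccl22*, below the filter, was compared by an exact permutation test of its CPM. DESeq2 1.42.0, other scalings and filters, a replicate block and fits without each library were the alternatives. Scripts were tested on simulated data.

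The 9 genes and the lists of ligands, receptors, pathway genes and markers were chosen with earlier results of these data known, and some genes of the lists are not reported here. Named were the 9 genes, *Zfp36*, the called genes of the lists, with a few uncalled ones picked after their values were seen (*Cxcr6* and the NF-κB subunits), the markers, and the 5 genes with the highest correlation of log2 CPM with *Ccl3* (prior count 2, without antigen-receptor segments and clone names). Gene positions and 3′ UTRs came from GENCODE M21 (GRCm38), where 54510 of 55376 symbols matched, and the longest annotated 3′ UTR was used. Drawings were made with matplotlib 3.10.9 under Python 3.11.15.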

Additional observations from a re-analysis of the deposited data

Results flagged for a closer look

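In 45 groups of 4 or 5 libraries the highest or lowest value was compared with the rest by Dixon's test, which flags about 1 in 20 groups by chance. *Ccl3* in Y-WT HSC replicate 3, at 6.69 CPM, stood apart from the next value of 4.39 CPM. *Ccl5* in Y-WT HSC replicate 2, at 2.38 CPM, stood below the next value of 7.55 CPM. *Ccl22* in M-WT HSC replicate 2, at 0.0505 CPM, and in Y-WT MPP3 replicate 3, at 0.134 CPM, stood apart from replicates without a count. Beside such replicates any count is flagged, here 2 and 4 counts, so that the rate of 1 in 20 does not hold for *Ccl22*. *Cxcl10* in Y-TTPΔARE MPP3 replicate 1, at 40.9 CPM, stood apart from the next value of 19.6 CPM. The genotype difference of *Cxcl16* differed between MPP3 and HSCs by 2.65 on the log2 scale (edgeR, adjusted p = 0.0365).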

How the results depend on the processing

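The number of the chemokine genes called (without *Ccl3* where its genotype difference chose the genes) moved with the test and with the low-count filter. In Y-HSC it was 0, and 3 with DESeq2, 3 with the likelihood ratio test and 2 without the low-count filter. In M-HSC it was 0, and 1 with DESeq2, 1 with the likelihood ratio test, 2 without the filter, 1 without antigen-receptor segment genes, and 0 to 1 with 1 library left out. In MPP3 it was 2, and 5, 5 and 4 under the first 3 of these, 4 with all 24 libraries in 1 fit and 2 with any library left out. Between ages in WT HSCs it was 2, 3 with DESeq2, without the filter or without the limit on level, 1 with all 24 libraries and 2 to 3 with 1 left out, between WT cell types 4, and 3 to 4 with 1 left out. The age difference of the genotype effect gave 0, and 1 with DESeq2 or the likelihood ratio test, and the cell type difference 1, 2 with DESeq2 and 0 to 1 with 1 left out. Over all genes the calls in Y-HSC were 6, 304 with DESeq2 and 146 with the likelihood ratio test, in M-HSC 298, 823 and 287, and in MPP3 326, 768 and 540. Without the filter they were 73 in Y-HSC, 842 in M-HSC and 470 in MPP3. They were 435 in M-HSC without segment genes and 1244 in MPP3 with all 24 libraries. Between ages in WT they were 2691, 2936 with DESeq2, 3352 without the filter, 4053 without the level limit and 1874 with all 24 libraries. The cell type difference gave 113, and 335 with DESeq2. Of the 9 genes 8 held the pentamer and 4 the heptamer. Replicate numbers did not pair the libraries (r between same-numbered libraries from -0.151 to 0.213), and with them as a replicate block MPP3 gave 3 chemokine genes, *Cxcl10* being the added call (2.34, adjusted p = 0.0361), while calls over all genes went from 6 to 5 in Y-HSC, 298 to 108 in M-HSC and 326 to 243 in MPP3.

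Values that turned direction under another setting than a left-out library lay between -0.17 and 0.10. They were *Cxcl16* in Y-HSC, 0.026 without the filter and 0.040 with the block; *Ccl3* between ages, -0.010 with DESeq2, -0.0095 with RLE, -0.083 with upper-quartile scaling and -0.11 with the block; *Ccl9* between ages, -0.055 with upper-quartile scaling and -0.17 with the block; the age difference of *Ccl4*, 0.047 with upper-quartile scaling, of *Ccl3*, -0.021 without the filter and -0.019 without the segment genes, and of *Ccl9*, 0.10 with the block; and the cell type difference of *Ccl4*, 0.052 with DESeq2, 0.051 with RLE, 0.094 with upper-quartile scaling, 0.033 without the filter, 0.026 without segment genes and 0.042 with all 24 libraries. With 1 library left out, *Cxcl16* in Y-HSC ran from -0.26 to 0.28, *Ccl6* in M-HSC from -0.48 to 0.43, *Cxcl2* in MPP3 from -0.44 to 1.38, and between ages *Ccl3* from -0.11 to 0.22, *Ccl4* from -0.16 to 0.0059 and *Ccl9* from -0.12 to 0.20. The age difference ran from -0.28 to 0.19 for *Ccl3*, -0.23 to 0.022 for *Ccl4*, -0.34 to 0.022 for *Ccl9* and -0.14 to 0.37 for *Cxcl16*, and the cell type difference from -0.14 to 0.18 for *Ccl4*, -0.75 to 0.17 for *Ccl5*, -0.56 to 0.33 for *Ccl9* and -0.072 to 1.78 for *Cxcl2*. The causes were not tested. Depth limits *Ccl22* and *Cxcl2*. With 1 library left out, the exact test of *Ccl22* in MPP3 gave a weaker result in 4 of 8 cases, and the difference ran from 1.37 to 2.62 CPM.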
